A study of Mus musculus with 4 samples.

Results

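Libraries of macrophages sorted from mouse bone marrow and spleen held transcripts of 10 haematopoietic lineage transcription factors. Their levels differed between the organs and between the libraries of normal and leukaemic mice. The genes are Myb, Gfi1, Gfi1b, Cebpa, Cebpb, Cebpe, Spi1, Runx1, Gata2 and Klf4, 10 of the 17008 genes with a read in any library. They were picked out by symbol, and both they and the gene lists used below were chosen with earlier results of these data known. The files list 9 of the 10 under these symbols, and Spi1 was found through its Gene ID under its older symbol Sfpi1. The 4 libraries come from C57BL/6J mice aged 6 to 8 weeks. The normal bone marrow and normal spleen libraries carry the label normal and stand for day 0. The T-ALL libraries belong to day 21 after a transplant of GFP+ leukaemia cells, taken from leukaemic mice (T cell acute lymphoblastic leukaemia, T-ALL) and given without irradiation. Mice with such transplants survived 35 to 40 days. The labels call the T-ALL cells leukaemia associated macrophages. The sources used here do not name the oncogene behind the leukaemia, the surface markers of the sort or the number of mice. Each group has 1 library, so differences cannot be set against the spread between mice, and none was tested.

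Blood cell types arise when a small set of transcription factors switches on the genes of one lineage and holds back those of another. PU.1 (encoded by Spi1) and C/EBPα set up the myeloid programme, C/EBPε drives the late granule genes of neutrophils, and C/EBPβ and KLF4 act in monocytes and macrophages. GFI1 and GFI1B are closely related zinc finger repressors, the first used by neutrophil and lymphoid cells and the second by erythroid cells and megakaryocytes. MYB, RUNX1 and GATA2 act in stem and progenitor cells, MYB and RUNX1 also in developing T cells and GATA2 also in mast cells and basophils.

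Levels of one gene between libraries are given as CPM, reads per 1000000 reads of the scaled library total, and levels between genes as RPKM, which also divides by gene length. Each fold or ratio is followed in parentheses by its 95% interval from the counts, for counting error only. Below, higher and lower as verdicts on a gene need a log2(CPM + 1) difference of 1 or more, that is 2-fold, and a level of at least 10 CPM in one library of the pair. Each library held 8.98 to 9.81 M reads (M, 1000000), and 1 read was worth 0.101 to 0.112 CPM. All 12 macrophage markers checked had reads in every library, with summed levels from 2939 to 8502 CPM, lowest in normal bone marrow, where 10 of the 12 reached 10 CPM. Sums weigh the most abundant genes. The median of the 12 was 29.9, 294, 706 and 247 CPM in normal bone marrow, T-ALL bone marrow, normal spleen and T-ALL spleen. Between the normal organs 11 of the 12 were higher in spleen and 1, Lyz2, was lower. Markers of other cell types were also read: the 8 neutrophil precursor markers summed to 15756 CPM in normal bone marrow and the 14 T cell and thymocyte markers to 3607 CPM in T-ALL spleen. In bulk RNA, fewer cells of a type and less RNA per cell cannot be told apart. The X-linked transcript Xist stood at 849 to 861 CPM in the normal libraries and at 0.644 and 416 CPM in T-ALL bone marrow and spleen, and the Y-linked Ddx3y had reads in the T-ALL libraries alone, so sex and leukaemia cannot be told apart in these libraries.

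In bone marrow, 2 of the 10 genes, Cebpb and Klf4, were higher in T-ALL than in normal and 2, Gfi1 and Cebpe, were lower. In spleen a different set passed the same rule: Myb and Gfi1 were higher, and Cebpa and Spi1 were lower. Gfi1 was thus called in both organs, in opposite directions. All 10 genes reached 10 CPM in a bone marrow library, where 8.01% of the 9716 genes measured were higher and 1.03% lower, 9.04% in all. In spleen 8 of the 10 did, and of 9774 genes measured 10.3% were higher and 11.0% lower, 21.4% in all. The median log2 fold of the 10 genes in bone marrow was -0.38, beside -0.04 over all genes measured. In spleen it was -0.68 over the 8 genes measured and -0.82 over all 10, beside -0.08 over all genes measured.

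**Figure D1:**
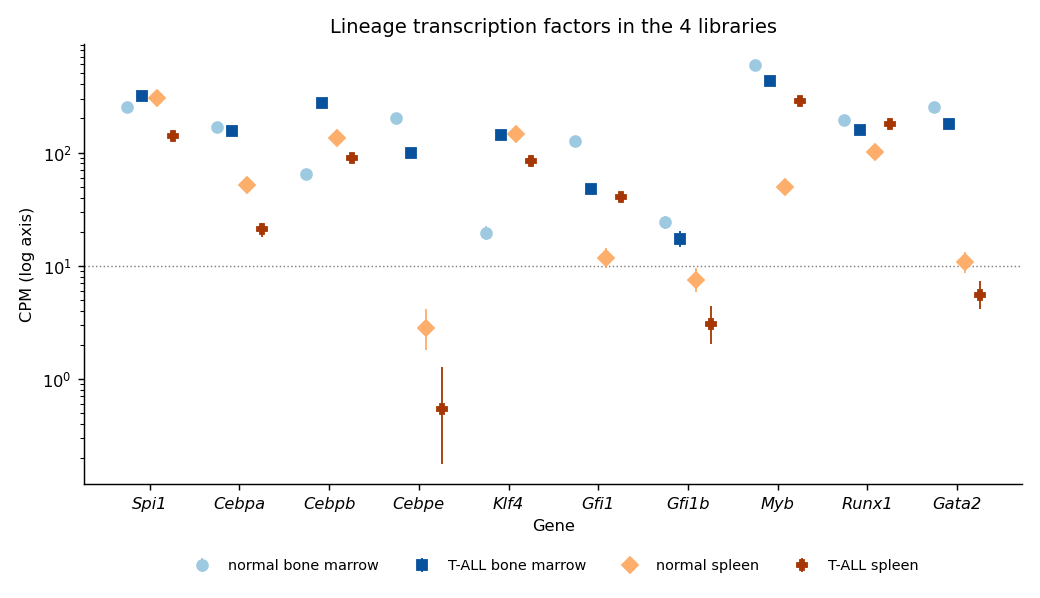
Level of each transcription factor gene in the 4 libraries, in CPM on a log axis. Points are single libraries, bars are 95% counting intervals, and the dotted line marks 10 CPM. Spi1 was at 139 CPM or more in every library, whereas Cebpe and Gata2 were at 99.4 CPM or more in both bone marrow libraries and at 10.7 CPM or less in both spleen libraries.

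Spi1 (Gene ID 20375), whose protein PU.1 is required for macrophages and B cells, was the most abundant of the 10 per length in all 4 libraries. Its level was 251 CPM in normal bone marrow, 316 CPM in T-ALL bone marrow, 306 CPM in normal spleen and 139 CPM in T-ALL spleen. The T-ALL spleen library stood below the other 3, which lay close together. In spleen Spi1 was 2.21-fold lower in T-ALL (2.07 to 2.36), and in bone marrow it was 1.26-fold higher (1.20 to 1.33), under the 2-fold rule. Per length, Spi1 exceeded Myb 17.6-fold in normal spleen (15.9 to 19.5) but 1.37-fold in T-ALL spleen (1.28 to 1.46). The macrophage markers, summed, were at 8224 CPM in normal spleen and 4573 CPM in T-ALL spleen (medians 706 and 247 CPM). All 12 were measured there, and 5 of them were lower and 0 higher. The 8 markers of B cells and their precursors, which also use PU.1, summed to 2176 and 1044 CPM in the same pair. All 6 dendritic cell markers were lower in T-ALL spleen, summed at 879 and 192 CPM. Of 7 measured late granule and mature neutrophil markers 7 were lower (576 and 164 CPM). Classical monocyte markers went both ways, with 2 higher and 1 lower of 5 measured (401 and 489 CPM). The part of these cell types in the Spi1 level was not tested.

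The C/EBP genes encode leucine zipper proteins that bind DNA as pairs with each other. Cebpa (Gene ID 12606), which commits progenitors to granulocyte and monocyte fates, was at 168 CPM in normal and 155 CPM in T-ALL bone marrow, and at 52.0 CPM in normal and 20.9 CPM in T-ALL spleen. Both bone marrow libraries were above both spleen libraries. The spleen pair differed 2.49-fold, lower in T-ALL (2.10 to 2.96), and the bone marrow pair 1.08-fold (1.01 to 1.16). Cebpb (Gene ID 12608), an inducible factor of activated macrophages, ran a different course, at 65.1, 272, 135 and 89.6 CPM in normal bone marrow, T-ALL bone marrow, normal spleen and T-ALL spleen. It was 4.18-fold higher in T-ALL bone marrow than in normal (3.83 to 4.56), and 1.501-fold lower in T-ALL spleen (1.37 to 1.64), under the 2-fold rule.

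Cebpe (Gene ID 110794) had the widest range of the 10 genes. It was at 202 CPM in normal bone marrow, 99.4 CPM in T-ALL bone marrow, 2.80 CPM in normal spleen and 0.541 CPM in T-ALL spleen, the last from 5 reads. In bone marrow it was 2.04-fold lower in T-ALL (1.88 to 2.20), just past the rule, with a log2 fold of -1.02. With a pseudocount of 5 CPM the log2 fold was -0.991 and Cebpe was no longer called. In spleen it stayed below 10 CPM in both libraries and was not called, at 5.17-fold lower in T-ALL (1.94 to 17.3). The neutrophil precursor markers summed to 15756, 4250, 545 and 451 CPM in the order normal bone marrow, T-ALL bone marrow, normal spleen and T-ALL spleen. The late granule and mature neutrophil markers summed to 37433, 29725, 576 and 164 CPM in that order. Their part in the Cebpe level was not tested.

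The balance among the C/EBP genes differed between the libraries. Of the summed RPKM of Cebpa, Cebpb, Cebpd, Cebpe and Cebpg, Cebpe held 51.5% in normal bone marrow, 21.9% in T-ALL bone marrow, 1.72% in normal spleen and 0.537% in T-ALL spleen. Cebpb held 13.6%, 49.3%, 67.9% and 73.0% in the same order. Per length, Cebpa exceeded Cebpb 1.46-fold in normal bone marrow (1.33 to 1.60), while Cebpb exceeded Cebpa in the other 3 libraries, 3.09-fold in T-ALL bone marrow (2.90 to 3.30), 4.55-fold in normal spleen (4.09 to 5.08) and 7.55-fold in T-ALL spleen (6.44 to 8.87). These ratios lie within a library and do not depend on scaling between libraries.

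**Figure D2:**
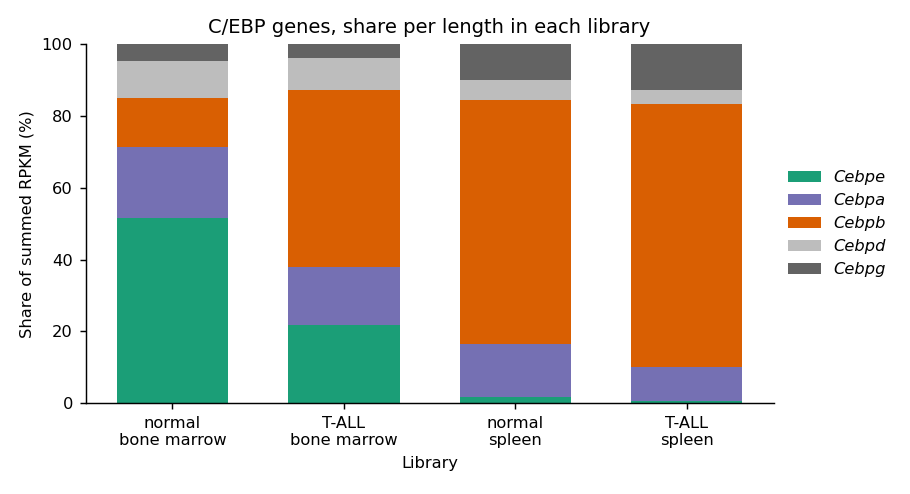
Share of each of 5 C/EBP genes in their summed RPKM, by library (1 library each). Cebpe makes up 51.5% in normal bone marrow and 0.537% in T-ALL spleen, and Cebpb 13.6% and 73.0%.

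Klf4 (Gene ID 16600), a zinc finger factor that promotes monocyte differentiation, was low in normal bone marrow and high elsewhere. It was at 19.4 CPM in normal bone marrow, against 142 CPM in T-ALL bone marrow, 145 CPM in normal spleen and 83.6 CPM in T-ALL spleen. This made it 7.30-fold higher in T-ALL bone marrow (6.27 to 8.55), the largest fold among the 10 genes in either T-ALL comparison. In spleen it was 1.73-fold lower in T-ALL (1.58 to 1.90), under the rule. The summed macrophage markers were at 2939 and 8502 CPM in normal and T-ALL bone marrow, where all 12 were higher in T-ALL, and at 8224 and 4573 CPM in spleen. Their medians were 29.9 and 294 CPM in bone marrow and 706 and 247 CPM in spleen. The classical monocyte markers were at 744 and 2552 CPM in bone marrow and 401 and 489 CPM in spleen. Their part in the Klf4 and Cebpb levels was not tested.

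The stretches upstream of Cebpb and Klf4, the pair that was higher in T-ALL bone marrow, are shown as RefSeq gives them on GRCm38.p6, each the 250 bases before the start of transcription, 5′ to 3′ on the gene's strand. Capitals mark matches to 9 short motifs on either strand: TTGCNNAA for C/EBP factors, GGAAGT for ETS factors such as PU.1, GATAA for GATA factors, AATC for GFI factors, AACNGT for MYB, CACCC for KLF factors, TGTGGT for RUNX factors, the TATA box TATAAA and TGACG, part of the cyclic AMP response element. CACCC and TGACG can overlap, as at one place in Cebpb.
Cebpb (chr2:167688665-167688914, plus strand): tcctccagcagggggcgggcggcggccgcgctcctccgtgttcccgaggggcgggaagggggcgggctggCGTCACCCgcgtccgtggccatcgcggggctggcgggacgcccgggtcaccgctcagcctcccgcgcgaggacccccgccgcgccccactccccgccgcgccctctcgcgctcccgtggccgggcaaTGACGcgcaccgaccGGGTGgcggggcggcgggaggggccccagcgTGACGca
Klf4 (chr4:55532476-55532725, minus strand): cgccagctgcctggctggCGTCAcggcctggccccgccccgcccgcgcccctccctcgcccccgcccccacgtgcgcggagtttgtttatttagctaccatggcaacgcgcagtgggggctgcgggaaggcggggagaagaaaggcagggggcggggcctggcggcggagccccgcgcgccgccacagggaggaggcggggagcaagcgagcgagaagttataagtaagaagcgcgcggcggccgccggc
Both stretches were rich in G and C, at 81.6% for Cebpb and 74.0% for Klf4, against a median of 52.4% over 32851 such windows of 27025 genes. Cebpb held TGACG at 3 places, and 0.688% of all windows held as many. The motif shares are over all windows and were not set against windows of like G and C content. Klf4 held it once, at positions -232 to -228 counted from the start, as 17.8% of windows did at least once. CACCC stood at 2 places in Cebpb, which 21.1% of windows matched or exceeded. None of the other 7 motifs was found in either stretch. A match describes the letters and is not a measured binding site. Windows were found for 8 of the 10 genes, all but Cebpe and Spi1.

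Gfi1 (Gene ID 14581), a repressor needed for neutrophils and used by T and B cell precursors, was at 126 CPM in normal bone marrow, 47.8 CPM in T-ALL bone marrow, 11.7 CPM in normal spleen and 40.6 CPM in T-ALL spleen. The 2 T-ALL libraries lay close together, between the 2 normal ones. In bone marrow Gfi1 was 2.63-fold lower in T-ALL (2.36 to 2.94), and in spleen 3.46-fold higher (2.78 to 4.33). The log2 ratio of CPM, T-ALL over normal, was thus -1.40 in bone marrow and 1.79 in spleen, a difference of 3.19 (2.84 to 3.53, counting error alone). Of 8 neutrophil precursor markers 7 were lower and 1 higher in T-ALL bone marrow (summed 15756 and 4250 CPM). Of 10 late granule and mature neutrophil markers 3 were higher and 0 lower there (37433 and 29725 CPM). Of 13 measured T cell and thymocyte markers 10 were higher and 0 lower there (378 and 994 CPM). In T-ALL spleen 11 of 12 measured T cell and thymocyte markers were higher and 0 lower (947 and 3607 CPM). The neutrophil lists had 0 higher in T-ALL spleen, with 1 of 3 measured precursor and 7 of 7 measured late markers lower. The 10 cell cycle markers summed to 3438, 2138, 588 and 2381 CPM in normal bone marrow, T-ALL bone marrow, normal spleen and T-ALL spleen. Of these 10, 0 passed the rule in bone marrow and 10 were higher in T-ALL spleen. The part of neutrophil, T lineage or dividing cells in the Gfi1 levels was not tested.

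Its relative Gfi1b (Gene ID 14582), which restrains erythroid and megakaryocytic genes, was highest in normal bone marrow, at 24.1, 17.3, 7.49 and 3.03 CPM in normal bone marrow, T-ALL bone marrow, normal spleen and T-ALL spleen. Both spleen values lie below 10 CPM, so Gfi1b was not called there, although it was 2.47-fold lower in T-ALL by counts (1.57 to 3.99). In bone marrow it was 1.40-fold lower (1.14 to 1.72), under the rule. The ratio of Gfi1 to Gfi1b per length was 3.32 in normal bone marrow (2.88 to 3.83), 1.76 in T-ALL bone marrow (1.47 to 2.12), 0.998 in normal spleen (0.728 to 1.38) and 8.53 in T-ALL spleen (5.81 to 13.01). The intervals of the 4 libraries do not overlap, and in normal spleen the relatives did not differ beyond counting error.

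The upstream stretches of this pair, which went apart in spleen, are shown in the same way as those above, because GFI proteins are known to bind their own gene and each other's. Gfi1 has another start in the RefSeq table, whose window held no match to any of the 9 motifs and is not shown.
Gfi1 (chr5:107725806-107726055, minus strand): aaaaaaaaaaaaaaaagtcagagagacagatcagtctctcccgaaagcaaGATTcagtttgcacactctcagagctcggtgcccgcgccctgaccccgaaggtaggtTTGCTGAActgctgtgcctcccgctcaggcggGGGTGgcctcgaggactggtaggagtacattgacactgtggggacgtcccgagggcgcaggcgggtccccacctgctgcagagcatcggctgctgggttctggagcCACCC
Gfi1b (chr2:28621983-28622232, minus strand): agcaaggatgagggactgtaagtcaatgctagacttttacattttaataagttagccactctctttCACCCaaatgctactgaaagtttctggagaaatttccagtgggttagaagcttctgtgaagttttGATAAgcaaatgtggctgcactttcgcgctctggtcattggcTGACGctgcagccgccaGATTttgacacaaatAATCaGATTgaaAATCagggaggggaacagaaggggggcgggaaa
Gfi1b held the GFI core AATC at 4 places between positions -60 and -30, and 7.04% of all windows held as many. It also held GATAA once, at -119 to -115, as 22.6% of windows did. Gfi1 held AATC once, which 69.0% of windows did, and TTGCNNAA once, at -143 to -136, which 9.56% did. Gfi1b was poorer in G and C, at 44.4%, than Gfi1 at 59.2%, and the shares are again over windows of any G and C content.

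Myb (Gene ID 17863), which keeps progenitors and thymocytes dividing, was the most unequal between the normal organs after Cebpe and Gata2. It was at 591 CPM in normal bone marrow, 425 CPM in T-ALL bone marrow, 49.4 CPM in normal spleen and 287 CPM in T-ALL spleen. Normal spleen stood far below the other 3 libraries. In spleen Myb was 5.81-fold higher in T-ALL (5.25 to 6.44), and in bone marrow it was 1.39-fold lower (1.34 to 1.45), under the rule. The 10 cell cycle markers summed to 3438, 2138, 588 and 2381 CPM in normal bone marrow, T-ALL bone marrow, normal spleen and T-ALL spleen, and all 10 were higher in T-ALL spleen than in normal spleen. The T cell and thymocyte markers were at 378, 994, 947 and 3607 CPM in that order. The 8 stem and progenitor markers, of cells that also use MYB, summed to 779, 538, 444 and 142 CPM in that order. Their medians were 61.3, 42.6, 5.37 and 3.03 CPM, and 3 of the 8 reached 10 CPM in each spleen library. Between the normal organs 2 were higher in spleen, Flt3 and Ly6a, and 4 were lower, so the list did not move as one. Of 3 measured in the spleen pair 2 were lower in T-ALL, Kit and Flt3, and 0 higher. Flt3 is also in the list of dendritic cell markers, and Kit is counted below as a MYB and a GATA2 target. The part of T lineage, dividing or progenitor cells in the Myb level was not tested.

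Runx1 (Gene ID 12394), which is active from stem cells to T cells, had the smallest ratio of its highest to its lowest CPM among the 10 genes, and in neither T-ALL comparison did it pass 2-fold. It was at 194 CPM in normal and 158 CPM in T-ALL bone marrow, and at 101 CPM in normal and 177 CPM in T-ALL spleen. The spleen pair differed 1.75-fold, higher in T-ALL (1.61 to 1.90), and the bone marrow pair 1.23-fold, lower in T-ALL (1.15 to 1.32). The difference of its log2 ratios between the organs was 1.11 (0.956 to 1.26), smaller than that of Myb at 3.01 (2.86 to 3.17). Gata2 (Gene ID 14461) was at 253 CPM in normal and 180 CPM in T-ALL bone marrow, and at 10.7 CPM in normal and 5.52 CPM in T-ALL spleen. It was 1.41-fold lower in T-ALL bone marrow (1.321 to 1.497) and 1.94-fold lower in T-ALL spleen (1.37 to 2.79), both under the rule. Markers of basophils and mast cells, which use GATA2, summed to 2778, 1362, 42.2 and 29.0 CPM in normal bone marrow, T-ALL bone marrow, normal spleen and T-ALL spleen. Megakaryocyte markers summed to 333, 226, 14.0 and 9.31 CPM. Their part in the Gata2 level was not tested.

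**Figure D3:**
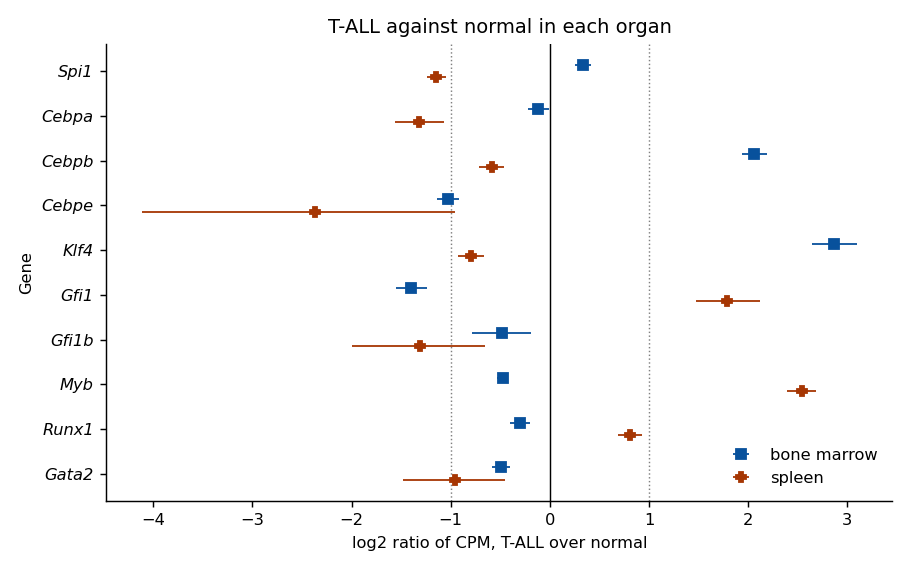
Log2 ratio of CPM, T-ALL over normal, for each gene in bone marrow (squares) and spleen (plus signs), 1 library per group, with 95% counting intervals and dotted lines at 2-fold. Cebpb and Klf4 lie right of 1 in bone marrow and left of 0 in spleen, and Myb and Gfi1 lie left of 0 in bone marrow and right of 1 in spleen.

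The T-ALL comparisons of the organs share no library, and their T-ALL libraries also differed in Xist, as given above. The log2 ratios of Klf4 and Cebpb were lower in spleen than in bone marrow by 3.66 (difference -3.66, -3.92 to -3.41) and 2.65 (difference -2.65, -2.83 to -2.47), and those of Spi1 and Cebpa by less (differences of -1.48 and -1.20). For Cebpe and Gata2 the interval of the difference included 0 (-2.73 to 0.05 and -0.97 to 0.03), so a difference was not detectable at this depth.

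The 2 organs also differed in the normal mice. Of the 10 genes, 2 were higher in normal spleen than in normal bone marrow, Cebpb and Klf4, and 6 were lower, Myb, Gfi1, Gfi1b, Cebpa, Cebpe and Gata2, where 16.1% of 10072 genes measured were higher and 14.0% lower, 30.2% in all. Cebpb was just past the rule, at 2.07-fold higher in spleen (1.88 to 2.28; log2 fold 1.04), and with a pseudocount of 5 CPM its log2 fold was 0.993 and it was no longer called. The largest differences were those of Cebpe, 72.4-fold lower in spleen (48.9 to 112), Gata2, 23.5-fold lower (19.2 to 29.1), Myb, 11.9-fold lower (10.8 to 13.2), and Gfi1, 10.7-fold lower (8.76 to 13.2). Between the T-ALL libraries, 0 were higher in spleen and 6 lower, namely Gfi1b, Cebpa, Cebpb, Cebpe, Spi1 and Gata2, beside 5.44% of 9852 genes higher and 11.0% lower, 16.5% in all. Myb and Gfi1 differed 1.48-fold (1.41 to 1.55) and 1.18-fold (1.02 to 1.35) there, both lower in spleen and under the rule. The median log2 folds of the 10 genes were -1.62 in the normal and -1.39 in the T-ALL comparison, beside -0.04 and 0.01 over all genes measured. Each organ comparison shares its libraries with the T-ALL comparisons, so these values are not independent of those above. The T-ALL libraries also differed in Xist, so sex and organ cannot be told apart between them.

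Ranked per length, the 10 genes stood in a different order in each library. In normal bone marrow it ran Spi1 (189 RPKM), Cebpe (164 RPKM), Myb (157 RPKM), Gata2, Cebpa, Gfi1, Cebpb, Runx1, Gfi1b and Klf4 (6.37 RPKM). Cebpe and Myb there did not differ beyond counting error (ratio 1.05, 0.993 to 1.10), nor did Gfi1 and Cebpb (1.02, 0.923 to 1.12). T-ALL bone marrow ran Spi1 (235 RPKM), Cebpb (179 RPKM), Myb (112 RPKM), Cebpe, Cebpa, Gata2, Klf4, Runx1, Gfi1 and Gfi1b (9.40 RPKM), with Cebpa and Gata2 not apart (1.06, 0.987 to 1.14). Normal spleen ran Spi1 (229 RPKM), Cebpb (88.9 RPKM), Klf4 (47.1 RPKM), Cebpa, Runx1, Myb, Gfi1b, Gfi1, Gata2 and Cebpe (2.25 RPKM). Runx1 and Myb, and each neighbouring pair from Gfi1b down to Cebpe, did not differ beyond counting error there. T-ALL spleen ran Spi1 (105 RPKM), Myb (76.7 RPKM), Cebpb, Klf4, Runx1, Gfi1, Cebpa, Gata2, Gfi1b and Cebpe (0.441 RPKM), and Gata2 and Gfi1b were not apart (1.02, 0.631 to 1.68).

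Relatives and partners of these factors were counted beside the 8.01% of all genes measured that were higher in T-ALL bone marrow and the 1.03% that were lower. Besides the members, 4 genes were listed under C/EBP by name or family: Cebpd, Cebpg, Ddit3 and Cebpz. Of these, 0 were higher or lower there. The same held for 4 measured RUNX genes and partners, 3 MYB relatives and coactivators, 7 GFI1 corepressors and 9 stem and progenitor factors. Ehmt2, a histone methyltransferase that GFI1 recruits, was at 237 and 228 CPM in normal and T-ALL bone marrow, and Cbfb, the partner subunit of RUNX proteins, at 241 and 230 CPM. Of 9 measured KLF relatives 2 were higher in T-ALL bone marrow, Klf2 (45.4 against 193 CPM) and Klf3 (32.8 against 71.8 CPM). Of 11 ETS relatives 1 was higher, Spic, the factor of red pulp macrophages, at 4.36 and 42.1 CPM, and of 9 genes of the GATA and erythroid complex 1 was higher, Gata3 (7.30 against 15.8 CPM). Of 10 lymphoid factors 4 were higher and 0 lower, Tcf7, Bcl11b, Lef1 and Tox. Of the other monocyte and macrophage factors 7 of 10 measured were higher and 0 lower (median log2 fold 1.97, all genes -0.04). Among them the orphan receptor Nr4a1 was at 77.8 and 557 CPM, and Nr1h3, a sterol-sensing nuclear receptor, at 5.78 and 39.7 CPM.

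In spleen, where 10.3% of all genes measured were higher in T-ALL and 11.0% lower, the same lists were counted. Of 7 measured KLF relatives 0 passed the rule, and of 10 ETS relatives Ets2 was higher (34.7 against 82.4 CPM) and Spib, a factor of B cells and plasmacytoid dendritic cells, lower (336 against 137 CPM). Cebpd was the 1 lower of the 4 other genes listed under C/EBP, at 16.2 and 7.25 CPM in normal and T-ALL. Of 4 measured RUNX genes and partners 2 were lower, Runx2 (42.6 against 13.3 CPM) and the corepressor Cbfa2t3 (234 against 77.0 CPM). Of 7 measured genes of the GATA and erythroid complex 3 were lower, Lyl1, Lmo2 and Nfe2, and 1 was higher, the T cell factor Gata3 (11.5 against 55.8 CPM). Mybl2, the MYB relative of dividing cells, was the 1 higher of 3 measured in its list, at 15.9 and 92.2 CPM, and Hdac2 the 1 higher of 5 GFI1 corepressors, at 66.4 and 195 CPM. Of 11 monocyte and macrophage factors 4 were lower, among them Irf5 (323 against 106 CPM) and Irf8 (455 against 214 CPM), and 0 higher, with a median log2 fold of -0.78 (all genes -0.08). Of 10 lymphoid factors 5 were higher, among them Lef1 (58.3 against 617 CPM) and Tox (10.6 against 84.6 CPM), and 1 was lower. Among stem and progenitor factors 2 of 5 measured were higher, Sox4 (12.3 against 149.5 CPM) and Ikzf2 (20.9 against 155 CPM), and 1 was lower, Hhex.

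Textbook targets of the factors were read beside them. Of all genes measured, 8.01% were higher and 1.03% lower in T-ALL bone marrow. In T-ALL spleen 10.3% were higher and 11.0% lower. Of 8 myeloid receptor genes bound by PU.1 and C/EBP factors, 4 were higher in T-ALL bone marrow and 0 lower (Csf1r, Cd14, Il6ra and Fcgr1), and in spleen 5 were lower and 0 higher (Il6ra, Csf2ra, Itgam and Csf2rb among them). Csf1r, Cd14 and Fcgr1 are also macrophage markers, so their calls were already counted above. Il6ra, a chain of the interleukin-6 receptor, was at 53.0, 182, 201 and 55.5 CPM in normal bone marrow, T-ALL bone marrow, normal spleen and T-ALL spleen. Of 8 primary granule genes 7 were lower in T-ALL bone marrow and 1, Ctsc, was higher, with Elane at 2079 and 428.5 CPM. Of 8 secondary and tertiary granule genes, which depend on C/EBPε in neutrophils, 0 were lower and 2 higher there, Mmp8 (43.4 against 327 CPM) and Mmp9 (96.5 against 591 CPM), beside a lower Cebpe. Camp, of the same list, was at 3872 and 2304 CPM, and Ltf at 5627 and 4859 CPM, both under the rule. In spleen 6 of 6 measured were lower, with Camp at 46.1 and 9.20 CPM, and 1 of 3 measured primary granule genes was lower, Prtn3. The primary granule genes are the same 8 genes as the neutrophil precursor markers. Most of the secondary and tertiary granule genes, Camp, Ltf, Mmp8 and Mmp9 among them, are also late granule and mature neutrophil markers.

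Genes that GFI1 is known to repress were counted in the same way. In T-ALL bone marrow, where Gfi1 was lower, 2 of 7 measured were higher and 0 lower. They were Egr1 (105 against 348 CPM) and the cell cycle inhibitor Cdkn1a (21.6 against 48.4 CPM). The median log2 fold of the 7 was -0.27, beside -0.04 over all genes measured. Egr1 is also among the monocyte and macrophage factors counted as higher above. In spleen, where Gfi1 was higher, 0 of 4 measured passed the rule in either direction (median log2 fold 0.28, all genes -0.08). Of the MYB targets measured, 0 of 5 passed it in bone marrow. In spleen, where Myb was higher, Ccnb1, a cyclin of mitosis, was higher (19.5 against 115 CPM) and the stem cell factor receptor Kit was lower (157 against 26.0 CPM), among 4 measured. Ccnb1 is also 1 of the 10 cell cycle markers. Kit is also a GATA2 target, and of 7 genes of mast cells and basophils it was the 1 gene measured in the spleen comparison. In bone marrow 0 of these 7 passed the rule, with Cpa3, a mast cell protease, at 284 and 184 CPM.

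**Figure D4:**
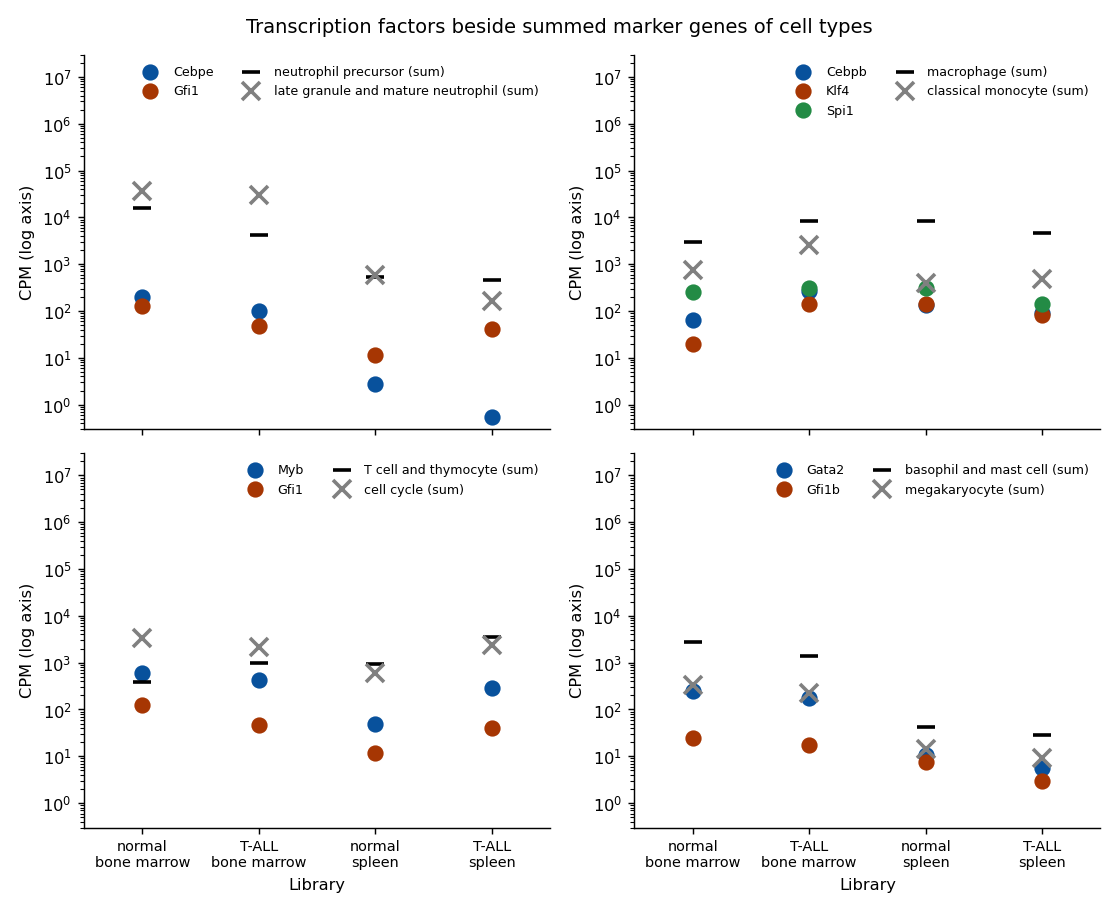
Transcription factor genes (filled circles) and summed marker genes of cell types (dashes and crosses) in the 4 libraries, in CPM on log axes. Cebpe and both neutrophil marker sums are higher in the bone marrow libraries than in the spleen libraries, as are Gata2 and the basophil and megakaryocyte sums, and Myb is lowest in normal spleen (49.4 CPM), where the cell cycle sum is lowest (588 CPM).

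Genes with the most similar pattern were named for each factor by the distance between mean-centred log2(CPM + 1) values over the 4 libraries, among 9883 other genes. With 4 libraries this is a description. Nearest to Gata2 were Hlf, a factor of blood stem cells, Muc13 and Itga2b, the platelet integrin chain (distances 0.18 to 0.26, median over all genes 4.70). Nearest to Cebpe were Rab44, Olfml2b and Lrg1 (0.46 to 0.58, median 6.03). The genes nearest to Klf4 were Ifi204 and the lectin receptors Clec4a3 and Clec4a1 (0.17 to 0.21, median 2.40), and Clec4a3 was at 22.8, 153, 139 and 86.7 CPM in normal bone marrow, T-ALL bone marrow, normal spleen and T-ALL spleen. Those nearest to Gfi1 were Sgol2, which protects chromosome cohesion, Usp2 and Ccne2, cyclin E2 (0.36 to 0.42, median 2.40), and those nearest to Myb were Klhl23, Fam69b and Zfp704 (0.22 to 0.37, median 2.78). Cebpa lay nearest Ifitm1, Ncf1 (a subunit of the phagocyte oxidase) and Ptgir, and Spi1 nearest Dok3, Sft2d2 and Rgl2. Cebpb lay nearest Hopx, Tmcc2 and Ccdc109b, Gfi1b nearest Mlkl, Csrp2 and Amot, and Runx1 nearest Mrpl28, Ppp1cc and Eri1. Among the 10 factors themselves the closest pairs were Gfi1b with Cebpa (distance 0.47) and Myb with Gfi1 (0.90), whereas Gfi1 and Gfi1b lay 2.07 apart.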

How the data were processed

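RNA of sorted macrophages was sequenced in 4 libraries, grouped by sample title. The deposited tables hold counts of uniquely mapped reads and RPKM for each gene, per the file headers. A gene without a line was set to 0 reads. For the members the deposited RPKM equals the count divided by listed length and header total. Aligner, counting rule, strand, build and annotation: not given in the sources used here. CPM used TMM factors from edgeR 4.0.16, in R 4.3.3, which lay between 0.991 and 1.01. Python 3.11.15, pandas 2.3.3, scipy 1.17.1 and matplotlib 3.10.9 did the rest. No model was fitted. Fold intervals (95%) are exact binomial, and those of differences of log2 ratios use a normal approximation to the counts. They treat reads as independent, which PCR copies are not. The size rule was tested on simulated data. Members and lists were chosen with earlier results of these data known. Named were all 10 members, at most 4 genes past the rule in a list and comparison (or its most abundant gene), any marker used to place a member, and the 3 nearest genes of each member. Scaling, pseudocount, minimum level, unit and fold threshold were varied. Promoter windows and coordinates are from RefSeq (GRCm38.p6).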

Additional observations from a re-analysis of the deposited data

Results flagged for a closer look

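Gfi1 was called in opposite directions in the organs: on log2(CPM + 1) it was -1.38 in T-ALL against normal bone marrow and 1.71 in T-ALL against normal spleen, a difference of 3.08 between spleen and bone marrow. With 1 library per group the difference was not tested against the spread between animals.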

How the results depend on the processing

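Of 72 recomputed counts of called members, 63 stayed within 1.5 times the reported count and 9 did not. No log2 fold of a called member changed sign under total-count or median-of-ratios scaling, pseudocounts of 0.1 and 5 CPM or the deposited RPKM, and 193 of 200 recomputed log2 folds stayed within counting error. In T-ALL against normal bone marrow, the lower members numbered 1 with a pseudocount of 5 CPM, where Cebpe dropped out, and 0 at 4-fold. In T-ALL against normal spleen, the lower members numbered 4 with no minimum (Gfi1b and Cebpe added), 4 at 1.5-fold (Gata2 and Klf4 added) and 0 at 4-fold, and the higher members 1 with a minimum of 50 CPM and 1 at 4-fold, where Myb remained. In normal spleen against normal bone marrow, the higher members numbered 1 with a pseudocount of 5 CPM and 1 at 4-fold, where Klf4 remained. The added and dropped genes follow from the thresholds themselves. The spleen levels of Cebpe, Gfi1b and Gata2 rest on 5 to 96 reads each, which limits their folds. No paired analysis was possible because each group has 1 library.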
